A study of Homo sapiens with 16 samples.

Results

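The genes described here are the chromatin modifiers and remodelers of the human genome that carry 8 families of names. They are lysine demethylases (KDM), methyltransferases and their relatives (KMT and SETD), histone deacetylases (HDAC) and lysine acetyltransferases (KAT). The others are the SWI/SNF-related subunits and ATPases (SMARC), the chromodomain helicases (CHD) and the bromodomain proteins (BRD). All were chosen by symbol alone among the protein-coding genes of GENCODE, with no use of any measured value. This gave 85 genes of the 60107 in the count tables, with 20 in the KDM family, 13 in SMARC, 11 in HDAC, 9 each in CHD and SETD, 8 each in KAT and KMT and 7 in BRD.

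DNA in the nucleus is wound around histones, and many proteins of these families help to decide how accessible it is. Writers add acetyl or methyl groups to lysines in the histone tails, erasers take them off, readers such as the bromodomain bind acetylated lysine, and remodelers spend ATP to slide or evict nucleosomes. Many act as the catalytic part of a large complex. Most of these proteins are made in every dividing cell, and several of their genes are known as tumour suppressors or oncogenes.

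The study asked what happens to cytoplasmic mRNA when methylation of the cap, the modified guanosine at the 5′ end, is blocked outside the nucleus. U2OS-TR cells, a human osteosarcoma line with the tetracycline repressor, carried a transgene for ΔN-RNMT under a promoter with tetracycline operators. ΔN-RNMT is an inactive form of the cap methyltransferase RNMT that is held in the cytoplasm. The Control group holds 5 libraries from uninduced cells of this line and the Induced group 5 libraries from the same line 24 h after doxycycline, which was given 48 h after the cells were split. The transgene line is 1 clone, selected with G418 for strong expression. The No Dox and With Dox groups hold 3 libraries each from parental U2OS-TR cells without the transgene, untreated or given doxycycline for the same time. The protocol recorded with the libraries names 1 μg/ml doxycycline for all 16 of them, whereas the study's methods give it to the Induced and With Dox cells only, and the treatments used here are those of the group names. All groups share the tetracycline repressor. Both lines were collected as cytoplasmic RNA, and tags next to the poly(A) tail were sequenced (QuantSeq REV). The 2 lines were sequenced on different instruments, so that line and instrument cannot be told apart.

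The transgene libraries held 12527183 to 23251834 counts on genes and the parental ones 1473286 to 3214808. The 85 genes took 0.577% to 0.714% of the counts in the transgene line and 0.478% to 0.664% in the parental line. Levels are given as CPM (counts per 1000000 counts of a library, scaled by edgeR's TMM factors), and fold changes are log2 differences fitted by edgeR, with their standard errors (SE). In such bulk libraries, fewer cells with an mRNA and less of it per cell cannot be told apart. Markers of mesenchymal and bone cells were present in all groups (VIM, SPARC, COL1A1, CDH2, FN1, RUNX2), with COL1A2 and TWIST1 at or near 0. Markers of blood, endothelial and epithelial cells summed to 5.61 to 13.3 CPM in Control, 7.86 to 17.3 in Induced, 3.69 to 4.27 in No Dox and 5.7 to 10.7 in With Dox, with EPCAM the highest of them and CD3E at 0 throughout.

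A pair of transgene libraries stood apart from their own groups. Over the 13038 tested genes, Control 5 differed from the mean of the other Control libraries by 0.758 (root mean square difference of log2 levels) and from the Induced mean by 0.287. Induced 2 differed from the mean of the other Induced libraries by 0.616 and from the Control mean by 0.348. Each of the other 8 libraries was closer to its own group. RNMT, which the transgene was made from, followed the labels in both: it was at 112 CPM in Control 5 against 55.6 to 74.6 in the other Control libraries, and at 360 CPM in Induced 2 against 266 to 458 in the other Induced libraries. Results are given below with all 10 libraries and again with these 2 left out. Leaving out libraries that lie near the other group widens the difference by construction, and the choice was made after seeing the data.

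Of the 85 genes, 81 passed the filter on low values in the transgene line and 25 were called at an adjusted P below 0.05 by edgeR's quasi-likelihood test, 16 higher and 9 lower in Induced. That is 30.9% of those tested, against 39.8% of all genes. By direction, 20% of all genes were called higher and 19.8% lower. The median log2 fold change of the 81 was 0.05, beside 0.04 for all genes. The share called was thus below that of all genes and the medians were alike, and neither difference was tested. Among the called genes, 15 rises and 7 falls were larger than 1.5-fold. The genes not tested were KDM4D, with 97 counts over the 10 libraries, KDM4E with 1, and KDM4F and KDM5D.

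Without Control 5 and Induced 2, 48 of the 81 were called, 23 higher and 25 lower, against 64.3% of all genes (33.8% higher and 30.5% lower), and the 25 genes above were all among them. With libraries scaled by their total counts alone, 32 were called, 28 higher and 4 lower, against 41.6% of all genes (30.8% higher and 10.7% lower), while the median of all genes moved to 0.28. With a surrogate variable in the fit, none was called and 18 had an unadjusted P below 0.05, with 1 gene called of all those tested.

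**Figure D1:**
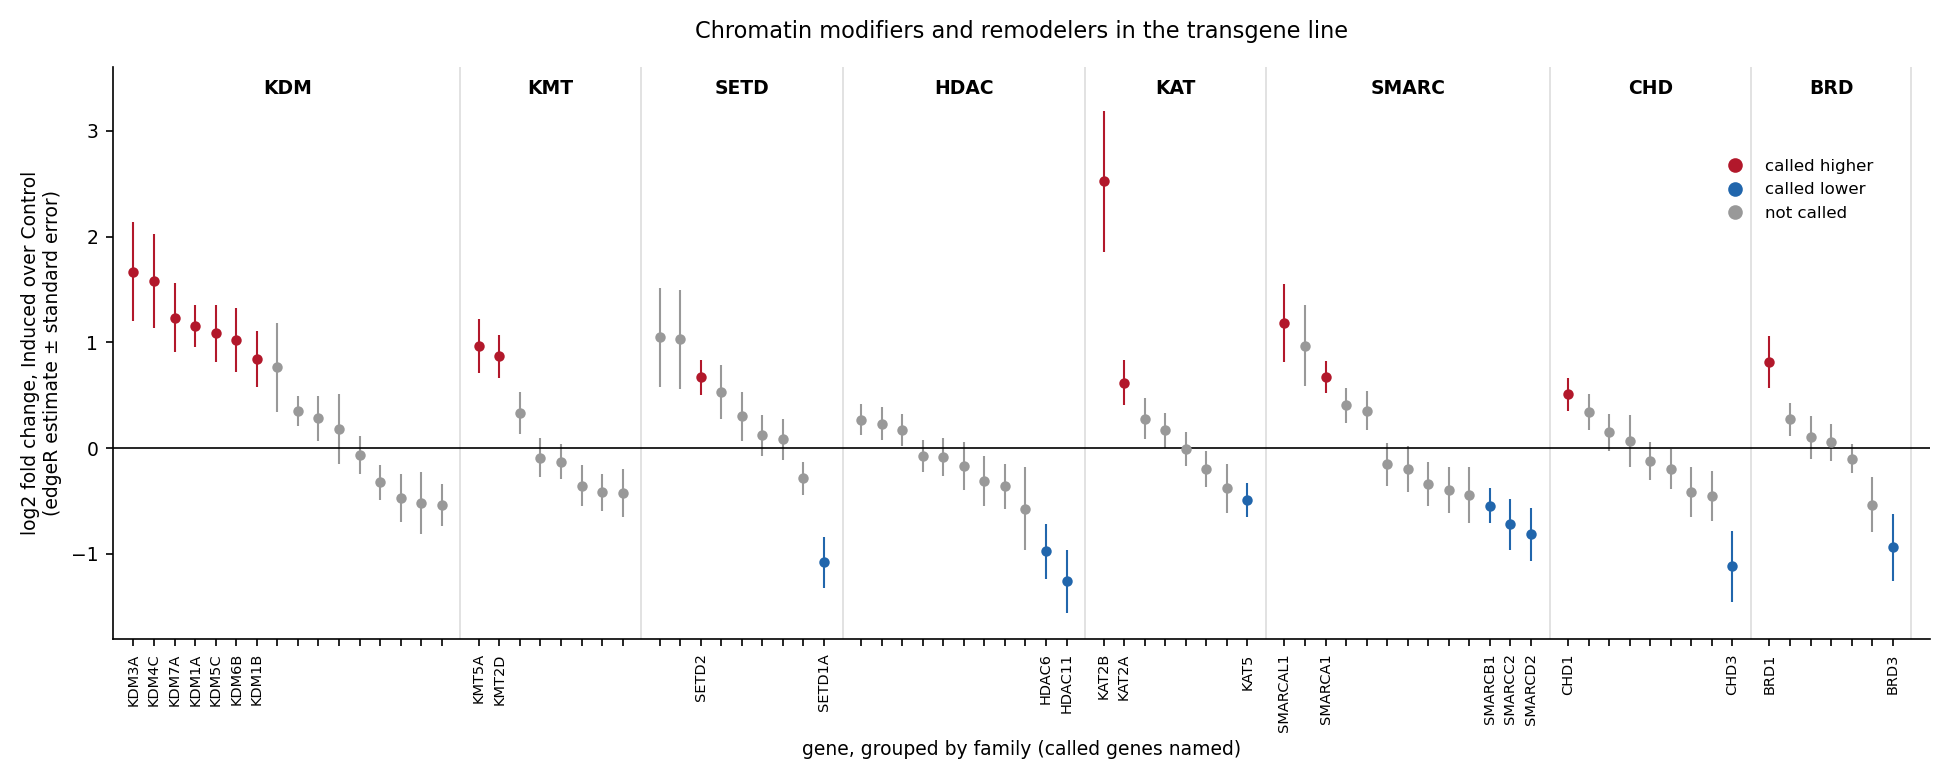
Log2 fold change (vertical axis) of the 81 tested chromatin genes (horizontal axis, grouped by family and sorted within it, with called genes named), Induced over Control, 5 libraries each; points are edgeR estimates and bars their standard errors, coloured by the call. The 16 called rises include 7 of the KDM family, and the 9 called falls lie in the HDAC, SMARC, SETD, KAT, CHD and BRD families.

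By family, the demethylases had the most rises, 7 of 16 tested and no fall, with a median log2 fold change of 0.56. This median stayed above 0 with each scaling (0.52 with DESeq2's size factors, 0.78 with total counts alone). With offsets for GC content it was 0.35, in a fit where the median of all genes moved to -0.16. KDM2B was called lower with size factors, and 4 demethylases were called lower without Control 5 and Induced 2, beside 9 called higher. The deacetylases had 2 falls among 11 tested and no rise, with a median of -0.17, which became 0.09 with total counts alone, where 3 were called higher. The acetyltransferases had 2 rises and 1 fall among 8, the KMT genes 2 rises among 8, the SETD genes 1 rise and 1 fall among 9, the SMARC genes 2 rises and 3 falls among 13, and the CHD genes (9 tested) and BRD genes (7 tested) 1 of each. These counts moved with the setting. Without Control 5 and Induced 2, there were 2 rises and 3 falls among the acetyltransferases, 2 and 3 in KMT, 4 and 2 in SETD, 4 and 6 in SMARC, 1 and 3 in CHD, 1 and 2 in BRD and 0 and 2 among the deacetylases. With total counts alone, there were 3 rises and no fall among the acetyltransferases, 3 and none in KMT, 5 and none in SMARC, 2 and none in BRD, 2 and 1 in CHD and 1 and 1 in SETD. Whether the families differ from each other was not tested.

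Among the erasers of methyl groups, KDM1A was the clearest rise. KDM1A (LSD1) removes methyl groups from mono- and dimethylated H3K4, and is the demethylase of the CoREST repressor complex. The gene lies on chromosome 1 of GRCh38, forward strand, from 23019443 to 23083689. Control libraries 1 to 5 held 12.1, 13.4, 13.2, 16.5 and 23 CPM, and Induced libraries 1 to 5 held 36.1, 27.5, 35.1, 38.1 and 37.6 CPM. All 5 Induced libraries lay above all 5 Control libraries, with Control 5 the highest of its group and Induced 2 the lowest of its own. KDM1A had a log2 fold change of 1.16 (SE 0.20, edgeR's adjusted P = 0.0175), which was 1.41 without Control 5 and Induced 2. KDM1A and KAT2B are 2 of the 9 called genes that kept their call with any 1 library left out, and of the 6 that also kept it with GC offsets; the others are KDM5C, KMT2D, HDAC11 and SETD1A.

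KDM3A, a demethylase of mono- and dimethylated H3K9 that is known as a hypoxia-responsive gene, had the largest rise of its family. It was at 2.08, 2.92, 4, 3.77 and 10.8 CPM in Control and at 19.1, 4.66, 19.6, 16.4 and 15.7 CPM in Induced. Induced 2 lay among the Control libraries and Control 5 lay between the groups. edgeR gave a log2 fold change of 1.67 (SE 0.47, adjusted P = 0.0213) and of 2.46 without Control 5 and Induced 2. With Control 2, Induced 1, Induced 3 or Induced 4 left out, it was no longer called. A processed copy, KDM3AP1, exists elsewhere in the genome, and tags that align to more than 1 place were not counted.

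The other rises among the demethylases were KDM4C, which acts on trimethylated H3K9 and H3K36 (log2 fold change 1.58), KDM7A (1.23), KDM5C, an X-linked demethylase of H3K4 (1.08), KDM6B, which acts on trimethylated H3K27 (1.02), and KDM1B (0.84). In KDM5C, picked after its values were seen, Control libraries held 11.5, 10.1, 11.7, 9.39 and 15.1 CPM and Induced libraries 32.3, 10.1, 26.5, 25.9 and 28 CPM, so that 4 Induced libraries lay above all Control libraries and Induced 2 lay among them. KDM7A and KDM1B were not called with GC offsets (0.70 and 0.47). KDM6A, the close relative of KDM6B, was at 0.389 to 2.04 CPM in Control and 0.894 to 2.26 in Induced and was not called. The lowest estimates belonged to KDM2B (-0.53, adjusted P = 0.0513), KDM4B (-0.52) and KDM2A (-0.47), none of them called.

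Among the writers of methyl groups, KMT2D, KMT5A and SETD2 were higher and SETD1A was lower. KMT2D, which places monomethyl H3K4 at enhancers, was at 3.91, 3.27, 4.06, 3.53 and 3.21 CPM in Control and 8.28, 4.09, 6.34, 7.1 and 7.12 CPM in Induced. The groups did not overlap, with Induced 2 (4.09 CPM) just above Control 3 (4.06 CPM). The log2 fold change was 0.87 (SE 0.20, adjusted P = 0.0175 from edgeR), and 0.96 without Control 5 and Induced 2. KMT5A, the enzyme that monomethylates H4K20, was at 19.1, 17.4, 22.2, 15.3 and 19.1 CPM in Control and 50.3, 17.8, 36, 29.4 and 48.8 CPM in Induced. Induced 2 lay within the Control range and the other 4 Induced libraries lay above it. KMT5A had a log2 fold change of 0.97 (SE 0.26, edgeR's adjusted P = 0.0189), which was 1.15 without Control 5 and Induced 2. KMT5A has 3 annotated pseudogenes (KMT5AP1 to KMT5AP3), and tags shared with them were not counted.

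SETD2, which trimethylates H3K36 in transcribed genes, was at 8.89, 7.78, 7.61, 8.57 and 10.7 CPM in Control and 15, 12.5, 10.8, 17.4 and 13.5 CPM in Induced. All Induced libraries lay above all Control libraries, with Induced 3 (10.8 CPM) just above Control 5 (10.7 CPM). edgeR gave a log2 fold change of 0.67 (SE 0.17, adjusted P = 0.0177) and of 0.78 without Control 5 and Induced 2. With GC offsets the estimate was 0.28 (adjusted P = 0.145). SETD1A, a catalytic subunit of a COMPASS complex that trimethylates H3K4, went the other way, from 63.2, 74.1, 90.3, 61.7 and 36.8 CPM in Control to 23.2, 43.1, 25.8, 31.1 and 30.8 CPM in Induced. Induced 2 lay above Control 5, and the other 4 Induced libraries lay below all Control libraries. The log2 fold change was -1.08 (SE 0.24, adjusted P = 0.0175 from edgeR), and -1.38 without Control 5 and Induced 2. Its paralog SETD1B had an estimate of 0.30 and was not called. SETD7 (1.03, adjusted P = 0.0902) and SETD9 (1.05, adjusted P = 0.0892) had larger estimates than SETD2, with wider errors. The KMT2 genes other than KMT2D were between -0.35 (KMT2A) and 0.33 (KMT2C) and none was called.

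The deacetylases remove acetyl groups from lysines, and HDAC1, HDAC2 and HDAC3 are the catalytic subunits of nuclear repressor complexes. HDAC1 (log2 fold change -0.08), HDAC2 (0.17) and HDAC3 (-0.08) were not called. HDAC11, the sole member of its class and known to remove fatty acyl groups, was at 57.4, 59.1, 92.8, 46 and 29.5 CPM in Control and 21.6, 36.6, 24.7, 18.4 and 17.6 CPM in Induced. Induced 2 lay above Control 5, and the other Induced libraries lay below all Control libraries. HDAC11 had a log2 fold change of -1.26 (SE 0.30, edgeR's adjusted P = 0.0175), which was -1.63 without Control 5 and Induced 2. HDAC11-AS1 lies on the opposite strand, and whether the counting used strand is not given in the sources used here. HDAC6, a cytoplasmic deacetylase of tubulin, was the second fall (-0.98, SE 0.26, adjusted P = 0.0195 by edgeR's quasi-likelihood test). In HDAC8 the groups did not overlap (32.3 to 47.4 CPM in Control and 47.6 to 56.7 in Induced), yet the estimate of 0.27 was not called (adjusted P = 0.144).

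Among the acetyltransferases, KAT2B had the largest rise of all 81 genes. KAT2B (PCAF) and its paralog KAT2A (GCN5) are the catalytic subunits of the SAGA and ATAC coactivators. KAT2B lies on chromosome 3 from 20040446 to 20154404 on the forward strand. It was at 0.254, 0.292, 0.278, 0.29 and 1.43 CPM in Control and 4.33, 0.329, 3.24, 2.81 and 4.69 CPM in Induced, over 310 counts in all. The filter on low values used the mean over both groups, and KAT2B passed it through the Induced libraries, where it was high. The size of this rise thus rests on few tags in Control. Control libraries 1 to 4 were below every Induced library, Control 5 lay inside the Induced range, and Induced 2 was close to the low Control libraries. edgeR gave a log2 fold change of 2.52 (SE 0.66, adjusted P = 0.0187) and of 3.71 without Control 5 and Induced 2. KAT2A was at 17.7, 15.4, 11.1, 18.7 and 22.9 CPM in Control and 22.7, 21.9, 23.6, 26.6 and 37.3 CPM in Induced, with Control 5 inside the Induced range. The log2 fold change was 0.62 (SE 0.22, adjusted P = 0.0402 from edgeR), and 0.80 without Control 5 and Induced 2. KAT5 (TIP60), the acetyltransferase of the NuA4 complex, was at 116, 113, 127, 107 and 78.7 CPM in Control and 70.7, 85.6, 66.7, 73.7 and 88.2 CPM in Induced. KAT5 had a log2 fold change of -0.49 (SE 0.16, edgeR's adjusted P = 0.032), which was -0.63 without Control 5 and Induced 2. KAT5 was not called with GC offsets (-0.35, adjusted P = 0.0741) or with total counts alone, and RNASEH2C lies on the opposite strand over part of it.

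KDM1A, KDM3A, KMT2D, KMT5A, SETD2, SETD1A, KAT2B, HDAC11, SMARCA1, SMARCD2, CHD3 and BRD3 are shown library by library in the plot of levels, where the place of Control 5 and Induced 2 differs from gene to gene.

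**Figure D2:**
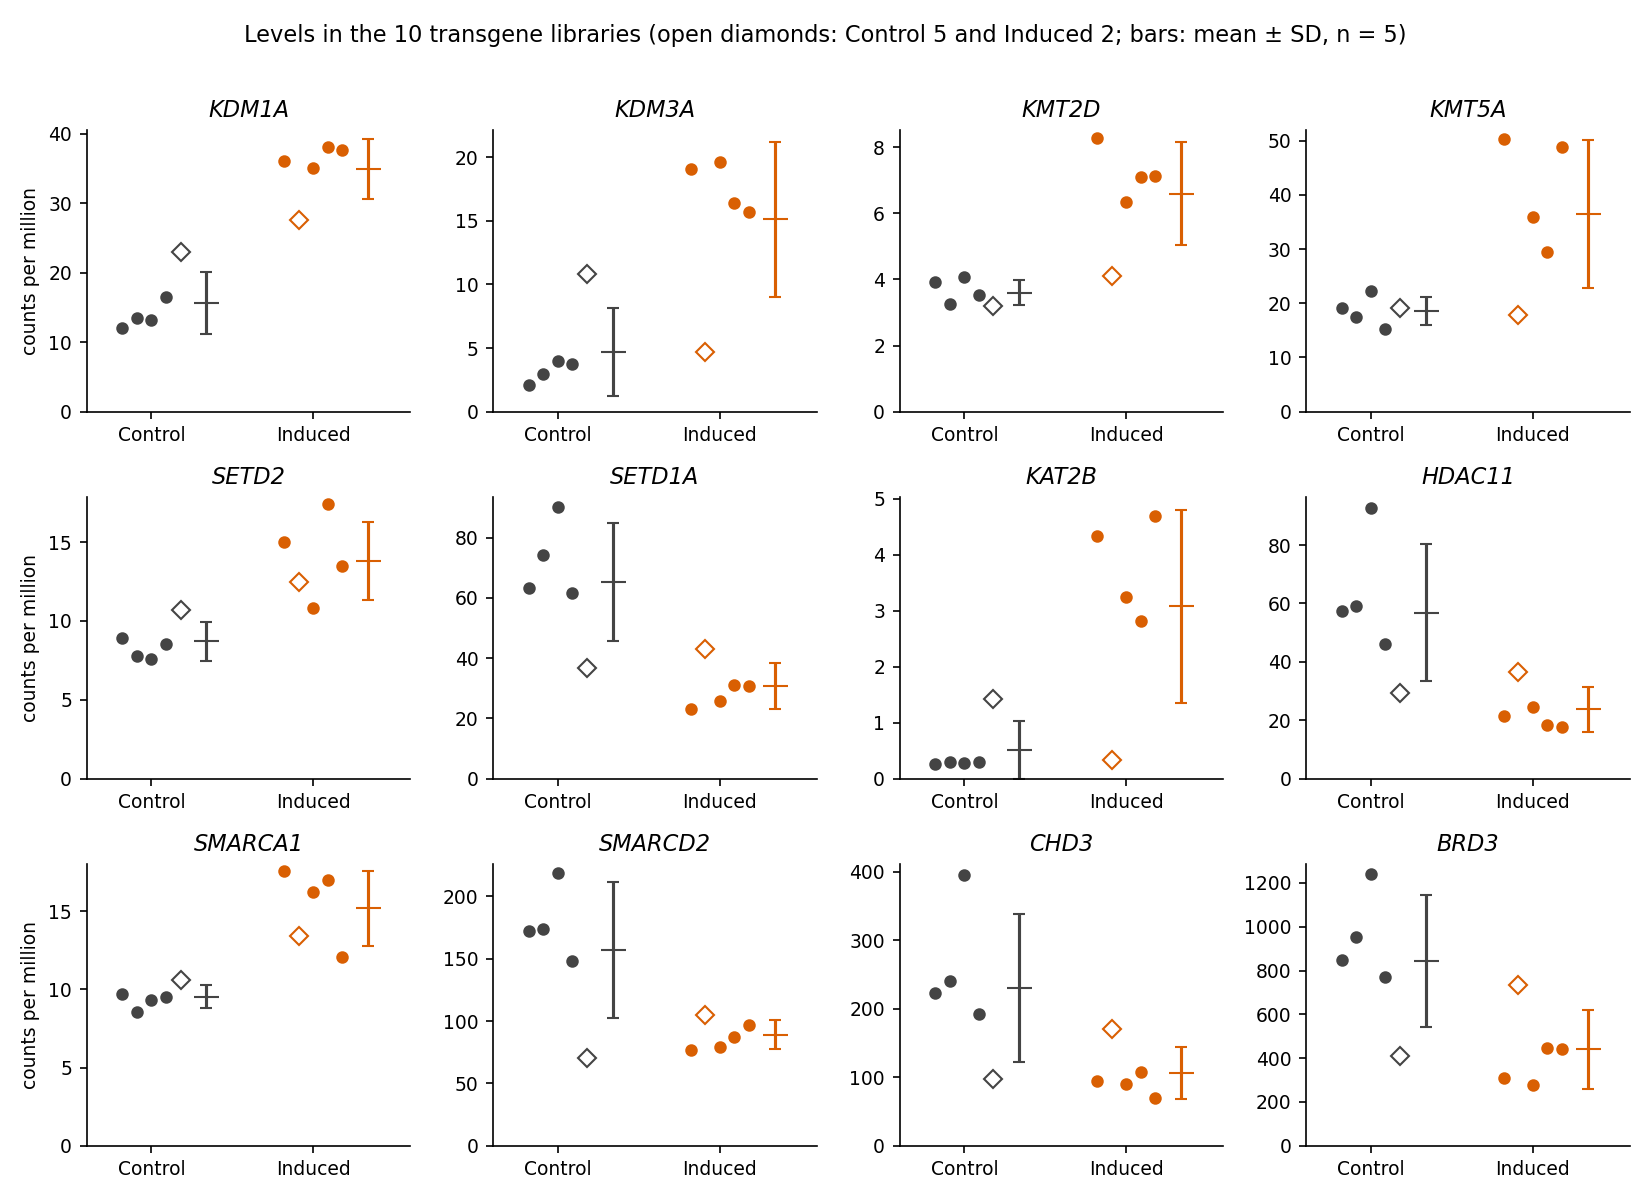
Levels in CPM (vertical axes, from 0) of 12 named chromatin genes in each Control and Induced library; open diamonds are Control 5 and Induced 2, and the bars to the right give mean ± SD (n = 5; the bar of KAT2B in Control is cut at 0). In KDM1A, KMT2D, SETD2 and SMARCA1 the 2 groups are separate, while in KDM3A and KAT2B Induced 2 lies among or next to the Control libraries.

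Among the remodelers, the 2 rises of the SMARC genes were both ATPases and the 3 falls were all non-catalytic BAF subunits, none of which was called with total counts alone. SMARCA1 (SNF2L) is an ATPase of the ISWI class. It was at 9.7, 8.54, 9.34, 9.49 and 10.6 CPM in Control and 17.6, 13.4, 16.2, 17 and 12.1 CPM in Induced, with all Induced libraries above all Control libraries. edgeR gave a log2 fold change of 0.67 (SE 0.15, adjusted P = 0.0175) and of 0.75 without Control 5 and Induced 2. With GC offsets its estimate was 0.19 (adjusted P = 0.268). SMARCAL1, which rewinds DNA at stalled replication forks, was at 1.68, 2.51, 2.56, 3.53 and 7.38 CPM in Control and 11.3, 5.03, 9.39, 7.83 and 6.89 CPM in Induced. Control 5 lay above Induced 2 and Induced 5. The log2 fold change was 1.18 (SE 0.37, adjusted P = 0.0293 from edgeR), and 1.77 without Control 5 and Induced 2.

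SMARCD2, an accessory subunit of the BAF complexes, was at 172, 174, 219, 148 and 70.1 CPM in Control and 76.9, 105, 79.1, 87.5 and 96.6 CPM in Induced. Control 5 was below all Induced libraries, and the other 4 Control libraries were above all of them. SMARCD2 had a log2 fold change of -0.82 (SE 0.25, edgeR's adjusted P = 0.0282), which was -1.07 without Control 5 and Induced 2. SMARCC2 (-0.72), a scaffold subunit of BAF, and SMARCB1 (-0.54), the core subunit lost in rhabdoid tumours, were also lower. MYL6 lies on the opposite strand over part of SMARCC2, and DERL3 over part of SMARCB1. SMARCB1 was not called with GC offsets (-0.34, adjusted P = 0.135) and was called in 3 of 10 fits with 1 library left out. The catalytic subunits SMARCA2 (-0.44) and SMARCA4 (-0.40) and the scaffold SMARCC1 (-0.34) had estimates below 0 and were not called, while SMARCE1 (0.97, adjusted P = 0.0613) and the ISWI ATPase SMARCA5 (0.36) had estimates above 0 and were not called either.

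In the CHD family, CHD1, a remodeler that binds methylated H3K4 and travels with RNA polymerase, was at 11.4, 10.8, 12, 12.1 and 13.1 CPM in Control and 18.8, 16.2, 14.3, 21.6 and 13.6 CPM in Induced. The groups did not overlap. edgeR gave a log2 fold change of 0.51 (SE 0.16, adjusted P = 0.0286) and of 0.55 without Control 5 and Induced 2. With GC offsets the estimate was -0.03, beside a median of -0.16 over all genes in that fit, so that its direction rests on the scale used. CHD3, an ATPase of the NuRD complex, was at 223, 240, 396, 193 and 97.9 CPM in Control and 94.1, 170, 90.2, 107 and 69.7 CPM in Induced. Control 5 lay within the Induced range and Induced 2 was the highest of its group. The log2 fold change was -1.12 (SE 0.34, adjusted P = 0.026 from edgeR), and -1.54 without Control 5 and Induced 2. Its paralog CHD4 (-0.20, adjusted P = 0.395) was not called. NAA38 lies on the opposite strand over part of CHD3.

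Among the readers, BRD1, a scaffold of the KAT6 and KAT7 complexes, was at 4.72, 4.68, 2.45, 4.31 and 5.34 CPM in Control and 8.5, 4.61, 9.2, 8.66 and 7.07 CPM in Induced. Control 5 exceeded Induced 2, and the other Induced libraries lay above all Control libraries. BRD1 had a log2 fold change of 0.82 (SE 0.25, edgeR's adjusted P = 0.0256), which was 1.04 without Control 5 and Induced 2. BRD3, one of the BET proteins that bind acetylated histones at active genes, was at 847, 955, 1240, 770 and 410 CPM in Control and 309, 733, 278, 447 and 440 CPM in Induced. Control 5 lay inside the Induced range and Induced 2 near the lower Control libraries. edgeR gave a log2 fold change of -0.94 (SE 0.32, adjusted P = 0.037) and of -1.37 without Control 5 and Induced 2. With total counts alone BRD3 was not called. Its paralog BRD2 (0.27) was not called. BRD3OS lies on the opposite strand over part of BRD3. Some other called genes, such as KDM6B and KMT2D, also have a gene on the opposite strand.

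Over all families, 5 called genes had groups without overlap: CHD1, KDM1A, KMT2D, SETD2 and SMARCA1, all of them higher in Induced. With HDAC8, which was not called, 6 of the 81 had groups without overlap, and such groups were found in 7.3% of all tested genes, called or not. Of the 25 called genes, 24 kept their sign under every setting run, with CHD1 the exception. The calls depended on single libraries. Of the 25, 9 were still called without Induced 1, 11 without Control 2 and 11 without Induced 4. There were 12 without Control 1, 13 without Induced 3, 16 without Control 3, 16 without Control 4 and 19 without Induced 5. All 25 were called without Control 5 or without Induced 2. The calls over all genes moved with the same libraries, from 39.8% with all 10. The share was 14.3% without Induced 1, 16.6% without Control 2, 14.5% without Induced 4, 19.6% without Control 1 and 17.6% without Induced 3. It was 28.8% without Control 3, 25.3% without Control 4, 28.6% without Induced 5, 58.5% without Control 5 and 48.8% without Induced 2.

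**Figure D3:**
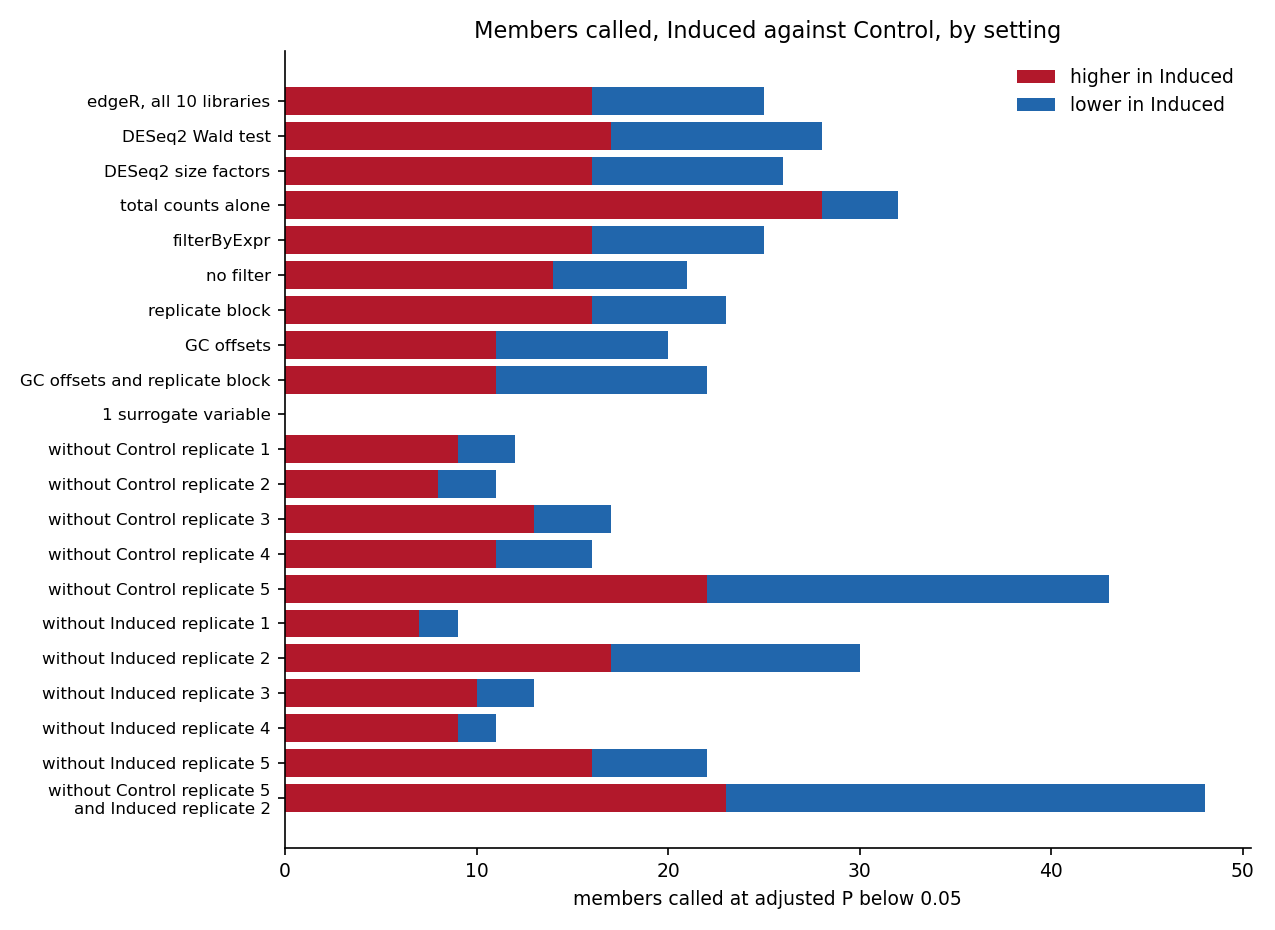
Number of the chromatin genes called at an adjusted P below 0.05 (horizontal axis) in Induced against Control under each setting (vertical axis), split into genes higher and lower in Induced. The count was 25 with all 10 libraries, 9 without Induced 1, 43 without Control 5, 48 without Control 5 and Induced 2, and 0 with 1 surrogate variable. Over all tested genes, the shares called in these fits were 39.8%, 14.3%, 58.5%, 64.3% and 0.00767%.

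The size and sign of the log2 fold changes varied with the base composition of the mRNA. Across the 81 genes, the log2 fold change fell with the GC content of the canonical transcript (Pearson's r -0.43, Spearman's rho -0.48), as it did across all 12922 genes with a GC value (r -0.37, rho -0.43). These are descriptions across genes that share the same libraries. Of the 27 genes with the lowest GC content (37.1% to 45.9%) 7 were called higher and none lower, with a median of 0.36. Of the 27 with the highest GC content (55% to 66.3%) 5 were called higher and 7 lower, with a median of -0.38. All 9 falls came from the genes of middle or high GC content. The 5 rises of high GC content were KDM5C, KDM6B, KMT2D, KAT2A and BRD1. With offsets that remove the dependence on GC content, 20 genes were called, 11 higher and 9 lower, and 18 of them were among the 25. In that fit 33.7% of all genes were called (10.8% higher and 23% lower). The part of GC content in the single changes was not tested further.

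**Figure D4:**
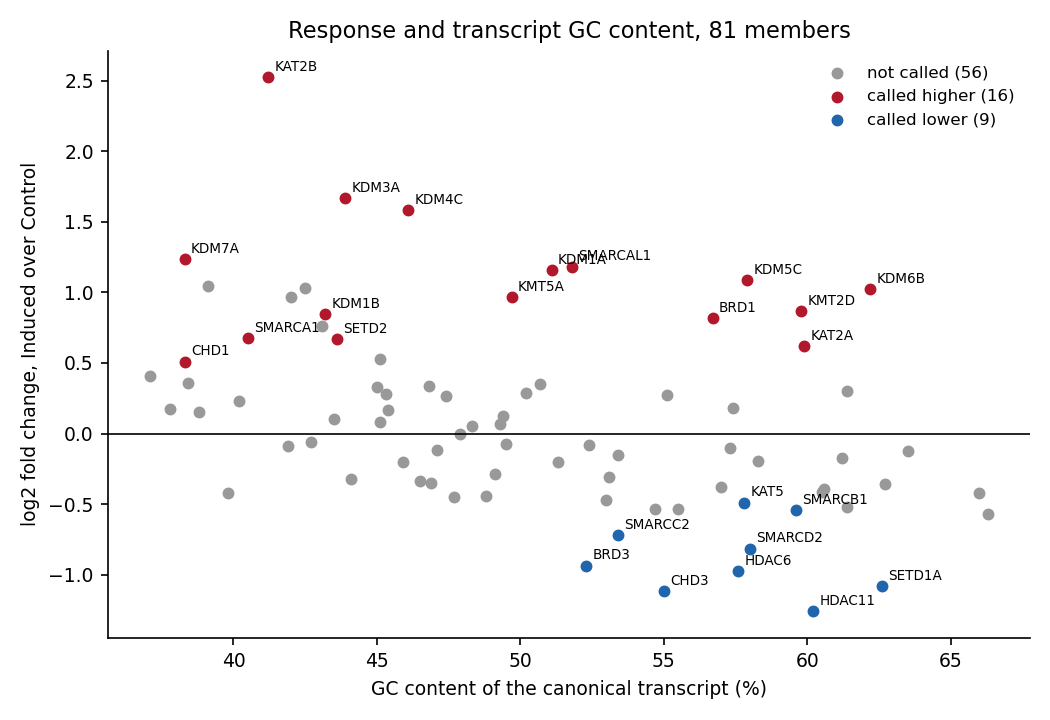
GC content of the canonical transcript in percent (horizontal axis) and log2 fold change, Induced over Control (vertical axis), of the 81 tested chromatin genes, coloured by the call, with called genes named. Called falls lie at 52.3% GC or above, and called rises span 38.3% to 62.2%.

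The study paid particular attention to TOP mRNAs, whose 5′ ends carry C and then a run of pyrimidines next to the cap. The start sites of the chromatin genes were therefore read from RefSeq windows (GRCh38.p14), which held 74 of the 85 genes. A start with C followed by 4 bases that are each C or T was found in 5 of the 74 (6.76%), beside 6.32% of the 15345 protein-coding genes with a window. These 5 genes were HDAC1, HDAC2, HDAC7, KAT14 and KMT2B, and none of them was called in either direction (log2 fold changes -0.08, 0.17, -0.36, -0.004 and -0.13). They are printed 5′ to 3′ from 15 bases before the start site to 15 bases from it, with the 5 bases from the start in capitals, to show what such a start looks like in this set. Such a match is a description of these letters and not a mapped cap site.
HDAC1, forward strand, chr1:32292068-32292097: gggccggaggcccgcCCCCTcccccctggg
HDAC2, reverse strand, chr6:113971134-113971163: aggtggtttggtggcCCCCTcctcgcgagt
HDAC7, reverse strand, chr12:47819889-47819918: ctcccggccccctccCTTCCtctcgccgtc
KAT14, forward strand, chr20:18138056-18138085: gtgtcacgtgaccgtCTCTTccgggcccgc
KMT2B, forward strand, chr19:35717988-35718017: ccgcctccccggcccCTCTCacggtgccaa

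Partner genes that carry other names were taken from 10 lists, whose counts stand beside the 39.8% called over all genes. The share called was 34.4% to 47.8% in 7 of the lists, and 52.9% in the BAF and PBAF list, 63.6% among the JmjC proteins and 83.3% among the 6 tested sirtuins. No list was tested as a set, and the genes named are among those called with the lowest P in each direction. In the BAF and PBAF list, 8 of 17 tested subunits rose and 1 fell, with PHF10 (log2 fold change 1.99) and BCL11B (1.04) higher and DPF1 (-0.66) lower. In the list of COMPASS subunits, 4 of 14 rose, among them DPY30 (0.67) and PSIP1 (0.62), and 2 fell, MEN1 (-1.36) and CXXC1 (-0.83). In the Polycomb complexes, 9 of 28 rose and 3 fell, with PHC1 (1.18) and PCGF6 (1.34) higher and the ubiquitin ligase RING1 (-1.27) and the methyltransferase EZH1 (-0.93) lower. PHF10 is a subunit of PBAF, and MEN1 encodes the tumour suppressor menin, which tethers KMT2A and KMT2B to chromatin.

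Among the partners of the deacetylases, 7 of 32 rose and 4 fell, with MIDEAS (0.95) and SAP30 (1.13) higher and SAP18 (-0.49) lower. Among the partners of the acetyltransferases, 11 of 39 rose and 5 fell, with TRRAP (1.51) and HAT1 (1.67) higher and ING4 (-0.61) and KANSL3 (-0.71) lower. The sirtuins, which deacetylate with NAD, were split, with SIRT1 (1.56) and SIRT5 (0.74) higher and SIRT6 (-0.86), SIRT7 (-0.94) and SIRT3 (-0.57) lower, of 6 tested. Of 23 other methyltransferases 6 rose and 5 fell, and the paralogs EHMT1 (1.57) and EHMT2 (-0.85), which methylate H3K9 together, went in opposite directions.

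Of 11 other JmjC proteins 3 rose and 4 fell, with PHF2 (0.99) and PHF8 (1.08) higher and JMJD4 (-0.82) and RIOX1 (-0.61) lower. Of 28 subunits of ISWI, INO80 and SRCAP complexes and other remodelers 8 rose and 2 fell, with INO80D (0.99) and the separate remodeler ATRX (0.53) higher and TFPT (-0.90) and RUVBL2 (-0.64) lower. Of 17 other genes for bromodomain proteins or acetyl-lysine readers 4 rose and 2 fell. ATAD2 (0.51) and TAF1 (2.49) were higher, and TRIM28 (-0.84) and SP140 (-0.87) were lower. Without Control 5 and Induced 2, where 64.3% of all genes were called, there were 12 rises and 2 falls in the BAF list, 6 and 2 in COMPASS and 15 and 4 in Polycomb. In that fit there were 9 and 8 among the partners of the deacetylases, 16 and 12 among those of the acetyltransferases, 2 and 3 among the sirtuins, and 8 and 11 among the other methyltransferases. The JmjC proteins had 3 and 5, the remodelers 10 and 3 and the readers 6 and 3.

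In the parental line, 65 of the 85 genes passed the filter and none was called, as none of all 9124 tested genes was called (0%). Among the genes called in the transgene line, BRD1, KAT2B, KDM1B, KDM4C, KDM6B, KDM7A and SMARCAL1, all rises, did not pass this filter. For these genes the parental line gives no test of doxycycline alone. At an unadjusted P below 0.05 there were 8 of the 65, all lower in With Dox, beside 2.93% of all genes at that P and 1.99% that were also lower. DESeq2's Wald test called none of the 65 and gave 7 with an unadjusted P below 0.05. The median log2 fold change of the 65 was -0.31, beside -0.01 for all genes, and 45 of the 65 estimates were below 0. By family the medians were -0.92 in KAT (7 genes), -0.81 in CHD (8), -0.69 in KMT (8), -0.63 in KDM (8), -0.23 in BRD (6), -0.08 in SMARC (12), -0.07 in HDAC (9) and 0.18 in SETD (7). The 6 parental libraries were not all closest to their own group. Over the 9124 tested genes, No Dox 2, No Dox 3, With Dox 2 and With Dox 3 were each closer to the mean of the other group than to the rest of their own. The mean of the own group left out the library itself. It thus rested on fewer libraries than the other mean, which by itself makes it vary more. Without No Dox 1 the median of the members was -0.14, beside 0.09 for all genes, and 1 member had an unadjusted P below 0.05.

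The 3 genes with the lowest P were KAT6B, KMT2E and KAT6A. KAT6B (MORF) and KAT6A (MOZ) are paralogous acetyltransferases of H3. KAT6B was at 55.3, 25.6 and 18.6 CPM in No Dox and 6.07, 7.98 and 8.96 CPM in With Dox (log2 fold change -2.11, SE 0.55, unadjusted P = 0.00266, adjusted P = 0.997 by edgeR's quasi-likelihood test). No Dox 1 was the highest library, and all No Dox libraries lay above all With Dox libraries. Without No Dox 1 the estimate was -1.45.

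KAT6A was at 54.7, 56.7 and 37.4 CPM in No Dox and 18.2, 20.7 and 28.5 CPM in With Dox (-1.15, SE 0.41, unadjusted P = 0.0181 and adjusted P = 0.997 from edgeR). KMT2E, which has a SET domain but is not known as an active methyltransferase, was at 55.3, 38.4 and 29.9 CPM in No Dox and 18.6, 9.17 and 18.7 CPM in With Dox (-1.41, SE 0.47, unadjusted P = 0.0124 and adjusted P = 0.997 from edgeR). In both genes the groups did not overlap, and none of these 3 differences passed the adjustment. As the 3 genes were picked by P, their separation follows in part from the choice. The share of all genes without overlap in this line was not counted. The other 5 genes with an unadjusted P below 0.05 were KAT2A, KDM5A, CHD9, KAT7 and CHD6, with log2 fold changes from -1.43 to -0.92.

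RNAs that stay in the nucleus were also read in this line, and none of the 3 tested was called. MALAT1, NEAT1, KCNQ1OT1, MEG3 and TUG1 summed to 552 to 1850 CPM in No Dox and 351 to 566 in With Dox, so that the sums overlapped. MALAT1 was at 311 to 1310 and at 121 to 129 (unadjusted P = 0.000583 and adjusted P = 0.997 from edgeR), while NEAT1 (157 to 535 and 147 to 323) and TUG1 (81.1 to 189 and 79.8 to 113) overlapped. In the transgene line the same sum was 795 to 996 in Control and 557 to 951 in Induced, with MEG3 at 0 in all libraries. There, 1 of the 4 tested was called lower in Induced (25%, beside 39.8% of all genes). For the difference between the lines' responses, described next, 1 of the 3 tested was called, with a higher response in the transgene line. That is 33.3%, beside 2.98% of all genes. The part of these nuclear RNAs in the parental values was not tested.

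The difference between the responses of the lines was tested directly. Of 74 tested members 3 were called, all with a higher response in the transgene line, beside 2.98% of all genes called and 0.775% called in that direction. They were KDM1A (difference of log2 fold changes 1.64, SE 0.33, adjusted P = 0.0372), KAT6B (2.16, SE 0.48, adjusted P = 0.0408) and KAT2A (1.85, SE 0.47, adjusted P = 0.0454), all by edgeR's quasi-likelihood test. KDM1A was at 20.9, 26.8 and 19.2 CPM in No Dox and 14.6, 14.8 and 11.4 CPM in With Dox, without overlap. This change was not called (-0.70, SE 0.44, unadjusted P = 0.141 and adjusted P = 0.997 from edgeR). It stands beside the rise in the transgene line given above. KAT2A was at 44.9, 29.9 and 18.3 CPM in No Dox and 11.4, 7.18 and 16.3 CPM in With Dox, also without overlap. It was not called there either (-1.43, SE 0.52, unadjusted P = 0.0198 and adjusted P = 0.997 from edgeR). Both genes were picked by their P for the difference. The share of all genes without overlap was not counted in the parental line. Other members, such as CHD2, KAT7 and KDM5A, were also lower in With Dox without overlap.

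KAT6B in the transgene line was at 12.8, 17.5, 24.5, 13.8 and 15.4 CPM in Control and 22.3, 18.8, 20.6, 23.4 and 17 CPM in Induced (log2 fold change 0.28, adjusted P = 0.245 from edgeR), beside -2.11 in the parental line. Likewise KAT6A was at 34, 37.1, 44.6, 40.7 and 36.3 CPM and 39, 56.4, 34.3, 48.3 and 38.5 CPM (0.17) and KMT2E at 57.9, 64.3, 77.7, 54.9 and 50.2 CPM and 58.7, 70.4, 48.7, 67.6 and 41.1 CPM (-0.09) there, with groups that overlapped. No member was called for the difference in 11 of the 16 fits with 1 library left out. Each of these lacked 1 of Control 1 to 4, Induced 1, 3, 4 or 5, No Dox 1, With Dox 1 or With Dox 3. Of all genes, 0% to 0.144% were called in those fits. Without Control 5 and Induced 2, 15 members were called, 9 with a higher and 6 with a lower response in the transgene line. In that fit 25.3% of all genes were called (11.7% higher and 13.6% lower). HDAC11 (-1.69, adjusted P = 0.0668) and SETD1A (-1.42, adjusted P = 0.0804) had the largest differences downwards and were not called.

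**Figure D5:**
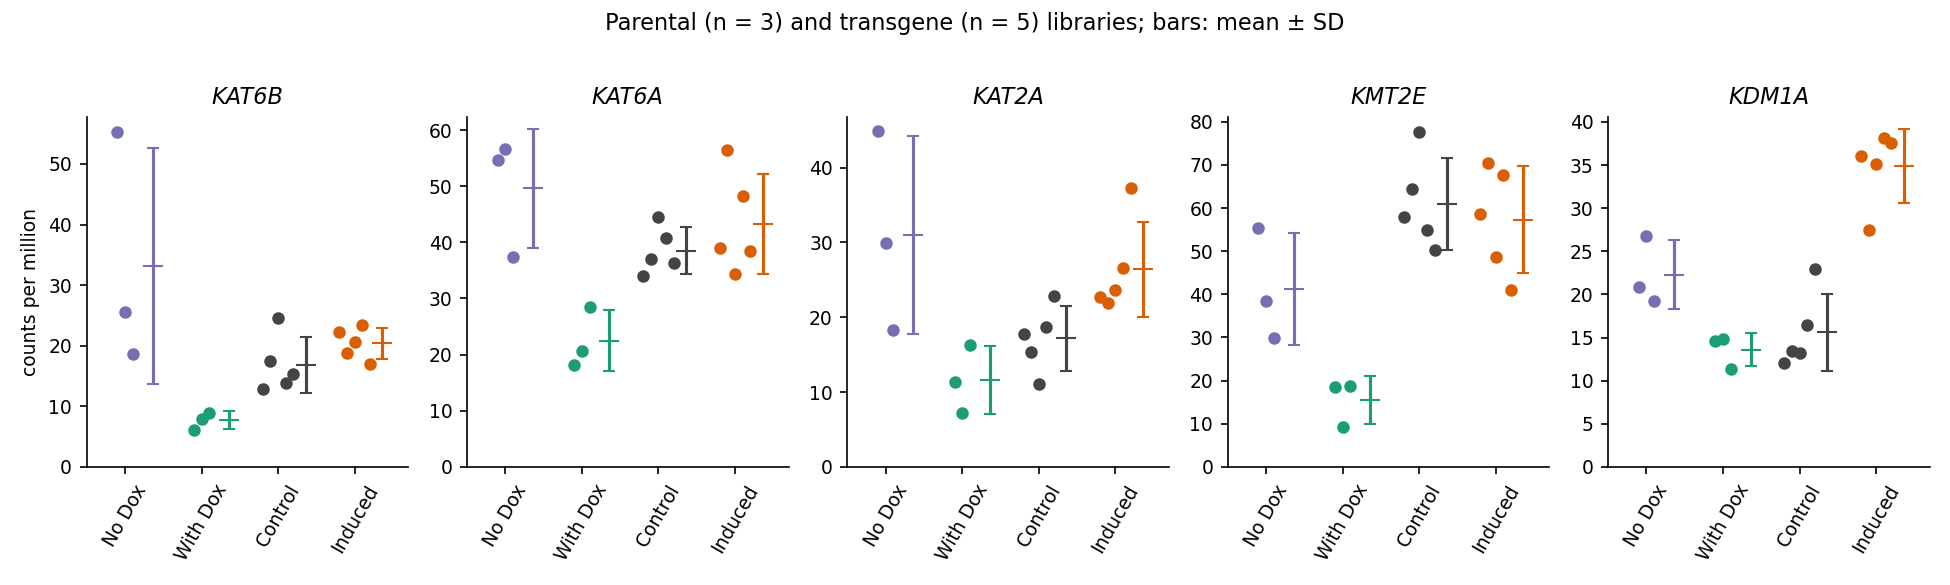
Levels in CPM (vertical axes, from 0) of KAT6B, KAT6A, KAT2A, KMT2E and KDM1A in each library of the parental line (No Dox, With Dox, n = 3 each) and of the transgene line (Control, Induced, n = 5 each); bars to the right of the points give mean ± SD. In each of the 5 genes the With Dox libraries lie below the No Dox libraries, and only in KDM1A are the Induced libraries all above the Control libraries. The genes were picked for low P in With Dox against No Dox or in the difference between the lines. Their separation in the parental line follows in part from that choice.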

How the data were processed

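Tags next to the poly(A) tail of cytoplasmic RNA were sequenced in 16 libraries. The authors deposited raw tag counts for each Ensembl gene from the QuantSeq REV pipeline on GRCh38. How tags were aligned, which annotation was used, and whether strand or duplicate tags were considered are not given in the sources used here. Each file lists 60107 genes, 92 spike-in entries at 0 and 5 summary entries, which stayed out of library sizes. For each gene count, 0.0744 to 0.106 tags in the transgene line and 1.11 to 1.5 in the parental line fell outside genes, 0.0117 to 0.0195 were ambiguous, and 0.561 to 1.44 aligned to several places. The 85 members were found by symbol in GENCODE release 44, and each had a row in every file. The members, the gene lists and the rule for the genes given in full (groups without overlap, the largest rise and fall of each family, and the lowest P values in the other comparisons) were chosen with earlier results of these data known.

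The whole table was tested after a filter on base mean (above 20), with edgeR 4.0.16 in R 4.3.3. Libraries were scaled by TMM, groups were compared by the quasi-likelihood test, and P values were adjusted after Benjamini and Hochberg, with calls below 0.05. This was done in each line and for the difference between the lines. Standard errors were the log2 fold change divided by the square root of the F statistic. The study describes the transgene libraries as biological replicates and the parental ones as made from separate cultures. No pair of libraries within a group was a duplicate, and pairs across groups were not checked. Alternatives were DESeq2 1.42.0, its size factors, total counts alone, 2 other filters, the replicate number as a block, GC offsets (lowess span 0.5), 1 surrogate variable (sva 3.50.0), the 1.5-fold limit and each library left out. The fits were tested on simulated data. Some items are not reported here.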

Additional observations from a re-analysis of the deposited data

Results flagged for a closer look

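In groups of 5 libraries, a single library far from the other 4 was found by Dixon's criterion, which chance meets in about 1 of 20 groups. There were 5 such cases among the genes given in full, and all of them were Control 5 or Induced 2. The case in KDM5C was counted although this gene was picked after its values were seen. The count was not compared with the number of groups searched. KDM3A was at 10.8 CPM in Control 5 against 2.08 to 4 in the other Control libraries, and at 4.66 CPM in Induced 2 against 15.7 to 19.6 in the other Induced libraries. KAT2B was at 1.43 CPM in Control 5 against 0.254 to 0.292, KDM1A at 27.5 CPM in Induced 2 against 35.1 to 38.1, and KDM5C at 10.1 CPM in Induced 2 against 25.9 to 32.3. In these cases the library lay on the side of the other group, as these 2 libraries did over all tested genes, while RNMT followed their labels. The cause was not tested.

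The response of the transgene line minus that of the parental line passed the test of the difference itself in KAT6B (2.16 on the log2 scale), KAT2A (1.85) and KDM1A (1.64). The adjusted P values from edgeR's quasi-likelihood test were 0.0408, 0.0454 and 0.0372. In 11 of the 16 fits with 1 library left out none of the 3 was called, beside 0% to 0.144% of all genes. The lines also differ in instrument and depth, which cannot be told apart from the line.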

How the results depend on the processing

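The count of 25 members called between Induced and Control was within 1.5 times of itself with DESeq2's Wald test (28), its size factors (26), total counts alone (32), other filters (25 with filterByExpr, 21 with none), GC offsets (20), GC offsets with the block (22) and the 1.5-fold limit (22). With the replicate number as a block it was 23, and same-numbered libraries did not all deviate together (correlations from -0.392 to 0.683, mean 0.0127, with the transgene and from -0.425 to 0.238, mean -0.0613, without it), so the numbers were not taken as pairs. With 1 surrogate variable it was 0, and the cause was not tested. Leaving out 1 library gave 9 to 43. Leaving out both Control 5 and Induced 2, chosen after seeing the data, gave 48. Over all tested genes, these fits called 14.3% to 58.5% and 64.3%, beside 39.8% with all 10 libraries. The share was 46% with DESeq2's Wald test, 39.6% with its size factors, 41.6% with total counts alone and 36.5% with filterByExpr. It was 17.3% with no filter, 33.7% with GC offsets, 37.3% with GC offsets and the block, 39.8% with the block and 0.00767% with 1 surrogate variable. The estimate for CHD1 turned to -0.034 with GC offsets and -0.052 with GC offsets and the replicate block. In these fits the medians of all genes were -0.164 and -0.166. No member was called in the parental line under any setting. The 3 members called for the difference between the lines became 12 with DESeq2's Wald test and 11 with total counts alone. They became 0 with filterByExpr, 1 with the replicate block and 13 with 1 surrogate variable, and the cause was not tested. Leaving out 1 library gave 0 to 11 there, and leaving out Control 5 and Induced 2 gave 15. Over all genes, 2.98% were called for the difference with all 16 libraries. The share was 12.6% with DESeq2's Wald test, 4.13% with total counts alone, 0.0182% with filterByExpr, 1.81% with the replicate block and 21.1% with 1 surrogate variable. It was 0% to 18.9% with 1 library left out and 25.3% without Control 5 and Induced 2. The parental libraries were the shallowest, and 65 members passed the filter there against 81 in the transgene line.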
